A study of Rattus norvegicus with 12 samples.

Results

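Small leucine-rich proteoglycans (SLRPs) are secreted proteins of the extracellular matrix, and 7 of them were followed across 12 Affymetrix arrays of rat liver: Dcn, Bgn, Aspn, Lum, Fmod, Prelp and Ogn. Members were the probe sets that the platform annotation gives to these symbols, 11 of the 31042 probe sets tested. Dcn, Bgn, Lum, Fmod and Prelp had 1 probe set each, Aspn had 2 and Ogn had 4, and none of the 11 was shared with another gene.

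The arrays held 4 RNA pools of liver tumor and 4 pools of nontumor liver from Long Evans Cinnamon (LEC/Crj) rats at 67 weeks of age. Single pools came from LEC liver at 4, 26 and 39 weeks and from liver of Long Evans Agouti (LEA) controls at 67 weeks. The labels state no treatment. The LEC strain carries a defective copper transporter gene, Atp7b, accumulates copper in the liver and develops hepatitis and liver tumors spontaneously, whereas LEA is a related strain kept as the undiseased control. Each tumor or nontumor array mixed RNA of 2 specimen pairs drawn at random from 8, where a pair was a tumor and the nontumor tissue beside it. How many rats entered the other pools, and whether a rat entered more than 1, is not stated, so p-values measure only the spread between these samples. Precision is limited by how few arrays there are, and in whole tissue fewer cells of a type and less RNA per cell cannot be told apart.

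An SLRP is built around a core of leucine-rich repeats that binds collagen fibrils and sets their width and spacing, and most members carry glycosaminoglycan chains. Class I holds decorin (Dcn), biglycan (Bgn) and asporin (Aspn). Class II holds lumican (Lum), fibromodulin (Fmod) and PRELP, and osteoglycin (Ogn) belongs to class III. In liver, stellate cells, portal fibroblasts and myofibroblasts are the usual source, and decorin and biglycan are known to bind the growth factor TGF-beta.

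Values are log2 expression, in which 1 unit is a 2-fold difference, and levels of different probe sets are not set against each other. On each array the brightest of 27 probe sets for bacterial RNA absent from liver was taken as the range in which a probe set cannot be told from no signal. It lay between 5.52 and 5.67 on the tumor arrays, between 5.88 and 6.01 on the nontumor arrays and between 6.11 and 6.22 on the single arrays. All rats are labelled male, but 10 arrays went against that label. These 10 carried Xist, which is expressed from the inactive X chromosome of females, at 11.36 to 13.12, with the Y-linked Eif2s3y at 3.65 to 3.81. The 26 and 39 week arrays had Xist at 5.27 and 5.67, with Eif2s3y at 8.90 and 8.18. The median of 9 hepatocyte marker genes was 12.76, 12.05, 13.71 and 9.79 on tumor arrays 1 to 4, against 13.86 to 14.07 on the nontumor arrays.

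RefSeq's promoter table (GRCr8) held 4 of the 7 members, and the 250 bases before the annotated start are shown for Lum, the member with the largest tumor difference, for Fmod, the member of the same class with none called, and for Ogn, where motif letters were found. Sequences run 5′ to 3′ on the strand of the gene, and capitals mark a match to a searched motif.
Lum, chr7:34245456-34245705, plus strand: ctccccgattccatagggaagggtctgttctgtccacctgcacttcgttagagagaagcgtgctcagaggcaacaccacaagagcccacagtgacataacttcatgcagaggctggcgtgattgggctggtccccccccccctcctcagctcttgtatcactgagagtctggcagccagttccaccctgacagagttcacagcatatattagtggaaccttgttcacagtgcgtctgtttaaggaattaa
Fmod, chr13:48045317-48045566, plus strand: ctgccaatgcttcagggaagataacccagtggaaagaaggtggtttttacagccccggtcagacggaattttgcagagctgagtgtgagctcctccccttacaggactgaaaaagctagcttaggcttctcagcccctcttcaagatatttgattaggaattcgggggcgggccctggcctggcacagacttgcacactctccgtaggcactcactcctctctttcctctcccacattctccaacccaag
Ogn, chr17:15258996-15259245, minus strand: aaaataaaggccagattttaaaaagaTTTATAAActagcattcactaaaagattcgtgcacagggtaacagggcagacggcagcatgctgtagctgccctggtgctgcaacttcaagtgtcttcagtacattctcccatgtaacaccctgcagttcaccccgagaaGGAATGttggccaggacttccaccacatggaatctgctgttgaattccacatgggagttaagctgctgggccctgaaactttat

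Motifs known for 4 kinds of factor were searched on both strands of these and of all 33469 promoter windows of the same length. The TATA box, searched as TATAAA, was in 12.9% of all windows. The AP-1 motif, searched as TGANTCA, was in 6.34% of them. The SMAD motif, searched as CAGACA, was in 17.2% of them. The TEAD motif, searched as GGAATG, was in 12.1% of them. The Ogn window held TATAAA on the plus strand of the gene at -222 from the start, an overlapping match on the other strand at -224, and GGAATG at -84. The Lum, Fmod and Aspn windows held none of these letters. No match was tested for binding.

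Tumor and nontumor liver of LEC rats at the same age were compared first. Of the 7 SLRP genes 6 rose in tumor and 0 fell, and 10 of the 11 probe sets passed an adjusted p of 0.05. The fit was limma's moderated test with Benjamini-Hochberg adjustment over all probe sets. The background was high: 31.7% of all probe sets passed the same rule in the higher direction and 32.2% in the lower. Of all calls 49.6% were higher in tumor, and 39.5% with array medians subtracted, which moved the median of all differences to -0.14 and no member's call. The median difference of the 11 probe sets was 2.50, beside -0.04 over all probe sets. In 10 of the 11 every tumor array lay above every nontumor array, which was the case for 29.4% of all probe sets.

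**Figure D1:**
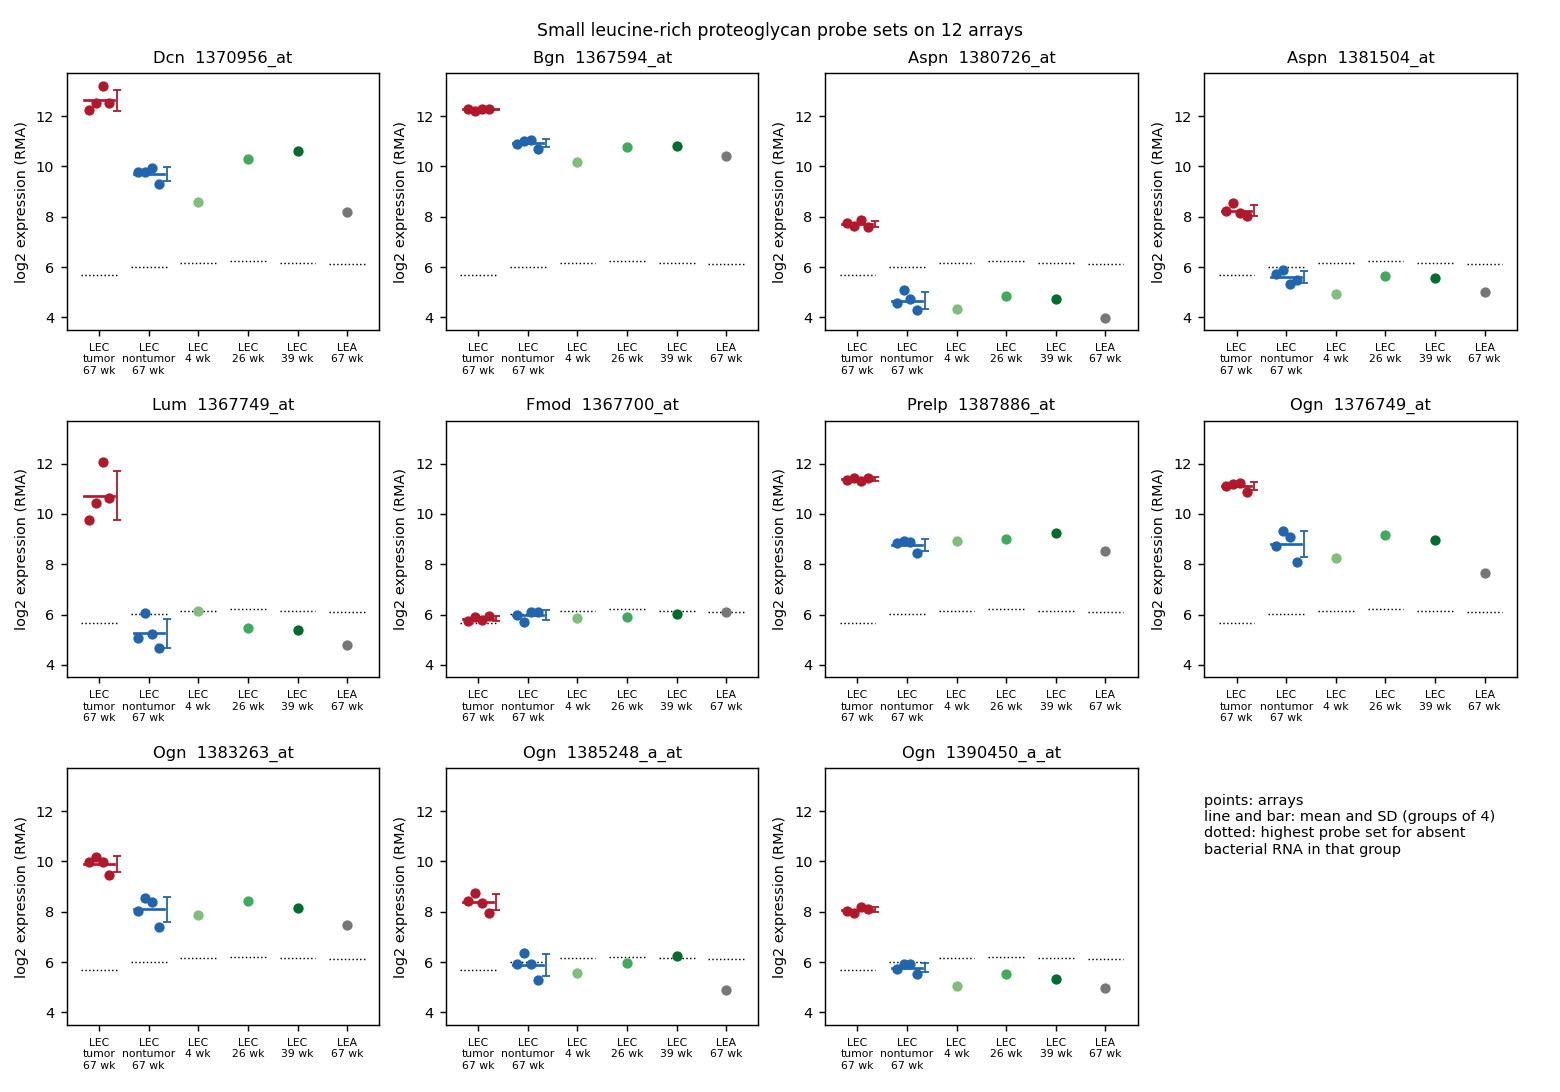
Log2 expression (RMA) of the 11 SLRP probe sets on the 12 arrays, with tumor, nontumor, the 3 LEC ages and LEA from left to right; points are arrays, lines and bars are mean and SD of groups of 4, and dotted lines are the brightest probe set for absent bacterial RNA in the group. Tumor arrays stand above all others in every panel but that of Fmod, which stays near the dotted line on all arrays.

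Among class I members, decorin, which wraps collagen fibrils and holds TGF-beta, had 12.25, 12.50, 13.19 and 12.53 on tumor arrays 1 to 4, against 9.77, 9.78, 9.94 and 9.31 on nontumor arrays 1 to 4. The lowest tumor array exceeded the highest nontumor array by 2.31, more than the range within either group. The difference was 2.92 ± 0.21 (SE), or 7.55-fold, with adjusted p = 9.4e-06. Tumor array 3 was the highest of its group, and the difference without it was 2.73.

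Biglycan, a proteoglycan with chondroitin or dermatan sulfate chains that can also signal through Toll-like receptors, had 12.29, 12.21, 12.28 and 12.26 on the tumor arrays, against 10.89, 11.02, 11.04 and 10.70 on the nontumor arrays. The tumor arrays lay within 0.08 of each other. Biglycan showed the smallest of the 10 called differences, 1.35 ± 0.09 or 2.54-fold, with adjusted p = 5.9e-06.

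Asporin, named for its run of aspartate residues, was measured by 2 probe sets that gave the same direction. Probe set 1381504_at had 8.21, 8.55, 8.13 and 8.04 in tumor, against 5.73, 5.89, 5.33 and 5.50 in nontumor liver. Probe set 1380726_at had 7.76, 7.63, 7.88 and 7.58 in tumor, against 4.57, 5.08, 4.72 and 4.29 in nontumor liver. All 4 nontumor arrays lay within the range of absent RNA for both probe sets, and no tumor array did. Fitted differences were 2.62 ± 0.15 (adjusted p = 3.1e-06) and 3.04 ± 0.16 (adjusted p = 2.2e-06). With each nontumor array set at its absent-RNA level, the tumor mean of Aspn was at least 4.85-fold higher by the first probe set and at least 3.38-fold higher by the second.

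In class II, lumican, a keratan sulfate proteoglycan that regulates fibril assembly, had 9.75, 10.42, 12.06 and 10.62 on tumor arrays 1 to 4, against 5.07, 6.05, 5.23 and 4.68 on nontumor arrays 1 to 4. Nontumor array 2 alone rose above its absent-RNA level. The fitted difference was 5.45 ± 0.47 with adjusted p = 2.4e-05, and its size rests on nontumor values at absent-RNA level. Against that level the tumor mean of Lum was at least 26.5-fold higher, or 4.73 log2 units. The lowest tumor array lay 3.69 above the highest nontumor array. Lum also varied most within the tumors, with an SD of 0.97 where the other members had between 0.04 and 0.40. Tumor array 3 was highest, and leaving it out gave 5.01.

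PRELP, an SLRP with a basic end that anchors basement membranes to connective tissue, had 11.35, 11.44, 11.29 and 11.43 in tumor, against 8.85, 8.94, 8.88 and 8.43 in nontumor liver. The groups lay 2.35 apart at their nearest arrays, and the tumor range was 0.15. The difference was 2.6 ± 0.12, or 6.08-fold, with adjusted p = 1.2e-06. Nontumor array 4 was the lowest of its group for Prelp, as it was for Dcn, Bgn, Lum and all 4 Ogn probe sets.

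Fibromodulin, which binds collagen I and competes with lumican for the same region of the fibril, had 5.73, 5.90, 5.80 and 5.94 in tumor, against 6.0, 5.72, 6.12 and 6.12 in nontumor liver. The groups overlapped, and every array of the series lay close to the absent-RNA level. The difference was -0.15 ± 0.10 with a 95% interval from -0.38 to 0.09 and adjusted p = 0.236. Without nontumor array 2 it was -0.24 with adjusted p = 0.0321. At this signal a difference in Fmod RNA could not be resolved.

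In class III, osteoglycin, also called mimecan, was measured by 4 probe sets. The brightest, 1376749_at, had 11.11, 11.18, 11.23 and 10.87 in tumor, against 8.73, 9.31, 9.08 and 8.10 in nontumor liver. Its difference was 2.29 ± 0.23, or 4.89-fold, with adjusted p = 6.0e-05. Probe set 1383263_at gave 1.81 ± 0.25, 1385248_a_at gave 2.50 ± 0.23 and 1390450_a_at gave 2.29 ± 0.10, with adjusted p = 3.1e-04, 3.5e-05 and 1.3e-06. The last of these rests on the same annotated accession as the brightest, so they are not independent measurements. Nontumor liver lay at or below the absent-RNA level on 2 arrays for 1385248_a_at and on 3 arrays for 1390450_a_at. Against that level the folds of the group means were at least 4.93 and at least 4.31. On all 4 probe sets every tumor array was above every nontumor array, with the nearest arrays 0.93 apart for 1383263_at.

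**Figure D2:**
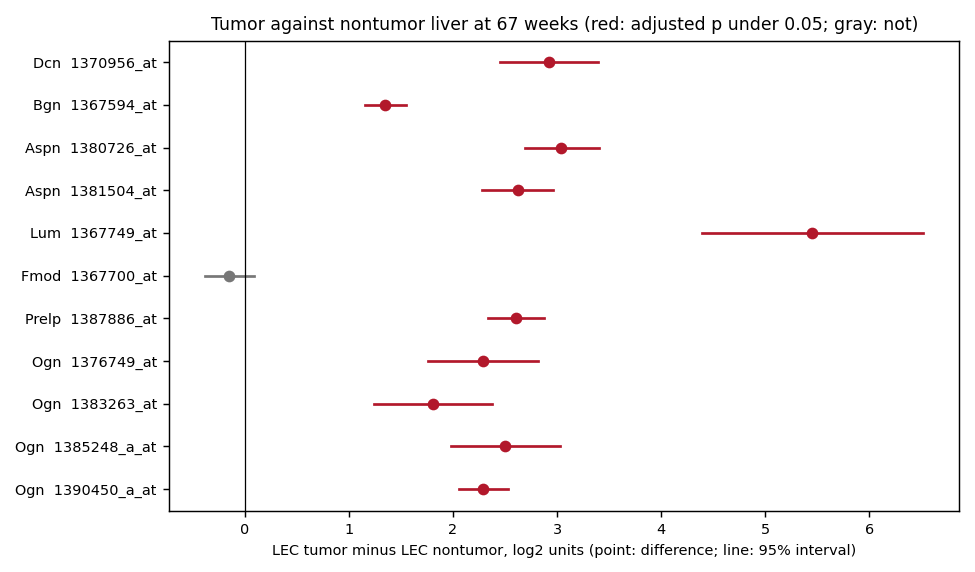
Difference of LEC tumor minus LEC nontumor liver at 67 weeks for the 11 probe sets, in log2 units, as points with 95% intervals; red marks adjusted p under 0.05 and gray the rest. Differences run from -0.15 for Fmod to 5.45 for Lum, and Fmod is the probe set whose interval spans 0.

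The SLRP genes lie in clusters, and the order of genes on GRCr8 allowed members to be set beside their neighbors. On chromosome 7 Dcn and Lum are adjacent. The genes that flank the cluster and have a named probe set differed by 0.52 ± 0.14 (Btg1, an anti-proliferative factor, adjusted p = 0.0105) and 0.66 ± 0.09 (Atp2b1, a calcium pump, adjusted p = 2.3e-04). On chromosome 13 Prelp lies between Optc and Fmod. Opticin (Optc) differed by -0.04 ± 0.10 with adjusted p = 0.758 and was at absent-RNA level on all 8 arrays, so the called member stood between 2 that were not. On chromosome 17 the order is Ogn, Omd, Aspn, Rpl6-ps6 and Ecm2. Osteomodulin (Omd) had 7.25 ± 0.19 in tumor and 8.10 ± 1.07 in nontumor liver (SD, n = 4 each), a difference of -0.85 ± 0.45 that was not called (adjusted p = 0.13), while Ogn and Aspn on either side rose by 2.29 and 2.62. Bgn lies on the X chromosome between Haus7, which rose by 0.70 ± 0.10 (adjusted p = 3.6e-04), and the calcium pump Atp2b3, which differed by -0.37 ± 0.11 (adjusted p = 0.0146).

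**Figure D3:**
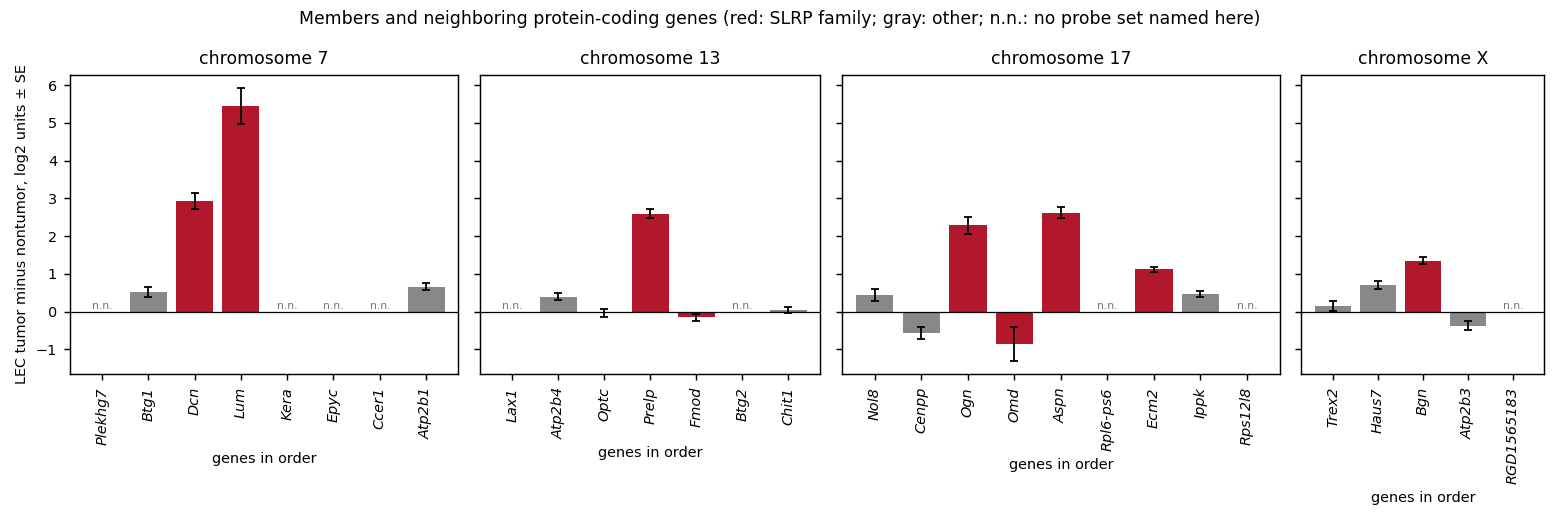
Difference of LEC tumor minus nontumor liver in log2 units (bars) with SE (lines) for members and the protein-coding genes next to them, in the order of GRCr8; red bars are SLRP family genes, gray bars are others, and n.n. marks genes with no probe set named here. Lum (5.45) and Dcn (2.92) stand above flanking genes at 0.52 and 0.66, and Omd (-0.85) lies between Ogn (2.29) and Aspn (2.62).

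The rest of the SLRP family did not move as one. Of 11 further family genes 8 were measured, and 2 rose and 2 fell in tumor with a median difference of 0.03. Over all 14217 genes 38.8% rose and 29.2% fell, and the median was 0.07. Ecm2, a matrix protein with leucine-rich repeats, rose by 1.12 ± 0.07 (adjusted p = 5.8e-06) and podocan (Podn) by 0.49 ± 0.12 (adjusted p = 0.00566). Tsukushi (Tsku), a secreted protein made by hepatocytes, fell to 8.82 ± 0.49 in tumor, against 10.64 ± 0.23 in nontumor liver (SD, n = 4 each; difference -1.82 ± 0.23, adjusted p = 2.1e-04). Chondroadherin (Chad) fell by 0.26 on the log2 scale (adjusted p = 0.0434). Besides Optc and Omd, Chadl (0.41 ± 0.18, adjusted p = 0.0739) and Podnl1 (0.10 ± 0.10, adjusted p = 0.408) were not called.

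Other proteoglycans were mixed, with 10 of 19 higher and 5 lower (median 0.49), where 1 of the 5, Spock1, lay at absent-RNA level on all 8 arrays. Over all genes 38.8% rose and 29.2% fell, with a median of 0.07. Versican (Vcan), a large hyaluronan-binding proteoglycan that lay at absent-RNA level on all 4 nontumor arrays, had a fitted difference of 3.27 ± 0.29. The basement membrane proteoglycan agrin (Agrn) rose by 3.24 ± 0.18 and glypican-3 (Gpc3), an oncofetal cell-surface proteoglycan, by 2.19 ± 0.23. Syndecan-2 (Sdc2) fell by 1.70 on the log2 scale. The largest adjusted p of these 4 was 4.7e-04.

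Enzymes that build the glycosaminoglycan chains rose in 12 of 26 genes and fell in 4, with a median of 0.11. This was near the background of all genes, of which 38.8% rose and 29.2% fell with a median of 0.07. The sulfate donor synthase Papss1 rose by 2.71 ± 0.28, while its paralog Papss2 differed by -1.41 ± 0.17. Dsel, a homolog of the dermatan sulfate epimerase, had a fitted difference of 1.94 ± 0.18 and was at absent-RNA level on all nontumor arrays. The chondroitin synthase Chsy1 rose by 1.49 ± 0.13. The largest adjusted p of these 4 was 1.5e-04.

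The collagens and fibril proteins that SLRPs bind rose in 10 of 15 genes and fell in 2, with a median of 1.74. This count and those below stand beside 38.8% of all genes that rose and 29.2% that fell, with a median of 0.07. Col6a3 (2.99 ± 0.19), Col1a1 (2.80 ± 0.22), Col5a2 (2.78 ± 0.22) and Col1a2 (2.54 ± 0.17) had the largest differences. Of growth factors and receptors that SLRPs are known to engage, 13 of 21 rose and 7 fell, with a median of 0.63. Tgfb3, a TGF-beta isoform, rose by 3.82 ± 0.13 and the hyaluronan receptor Cd44 by 3.09 ± 0.15. P2rx7, an ATP-gated channel, fell by 1.44 on the log2 scale and Tgfb1 rose by 1.32 ± 0.10. Proteases that cleave matrix or SLRPs rose in 9 of 13 genes and fell in 3, with a median of 0.92, but 2 of those that fell, Mmp3 and Mmp13, lay at absent-RNA level on all 8 arrays. The rises were led by Mmp2 (2.93 ± 0.17), Mmp12 (2.92 ± 0.39), Mmp7 (2.06 ± 0.54) and Adamts5 (1.16 ± 0.39). Mmp7 lay between 7.7 and 10.49 on the tumor arrays. For Adamts5 the tumor arrays (9.73 to 10.67) and nontumor arrays (8.31 to 10.25) overlapped. Bmp1, which trims the biglycan propeptide, fell by 0.71 on the log2 scale. The largest adjusted p among the genes of this paragraph was 0.0265.

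**Figure D4:**
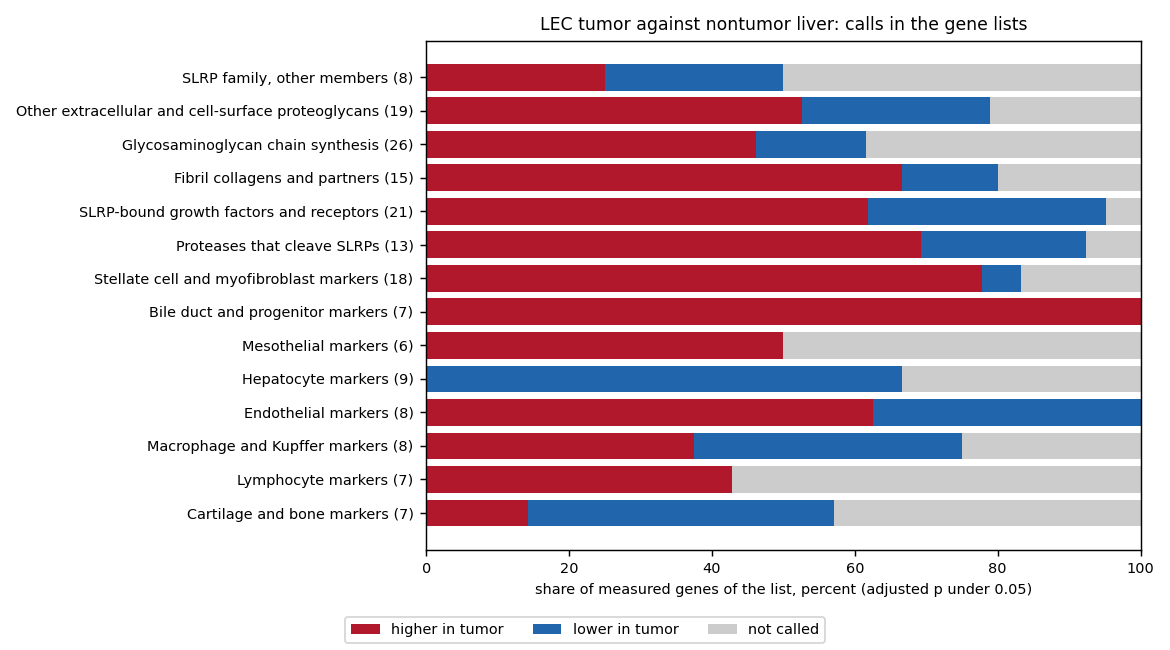
Share of the measured genes of each list that was higher in LEC tumor (red), lower (blue) or not called (gray) against nontumor liver at adjusted p under 0.05, in percent, with the number measured in parentheses. All 7 bile duct genes are red, 14 of 18 stellate cell and myofibroblast genes are red, and no hepatocyte gene is.

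Markers of several cell types moved in the same comparison, and their part in the SLRP differences was not tested. The marker counts stand beside 38.8% of all genes that rose and 29.2% that fell. Stellate cell and myofibroblast markers rose in 14 of 18 genes and fell in 1 (Ngfr, -0.72 ± 0.21). Their list median lay between 8.99 and 9.48 in tumor and between 7.74 and 8.05 in nontumor liver, and the log2 of their summed level between 13.79 and 14.16 in tumor and between 12.32 and 12.66 in nontumor liver. Periostin (Postn), at absent-RNA level on all nontumor arrays, had 3.80 ± 0.35, Tagln 2.87 ± 0.21, Pdgfra 2.37 ± 0.17, and Des and Pdgfrb 1.95 each. Cnn1, a smooth muscle marker, stayed at absent-RNA level on all 8 arrays. Tumor array 3, the array with the highest Lum and Dcn, had the highest list median of the tumor arrays not only for stellate cell markers (9.48) but for 7 of the 8 marker lists, among them hepatocyte (13.71), endothelial (9.95) and lymphocyte (8.14) markers, and the lowest for bile duct markers (11.19).

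All 7 bile duct and progenitor markers rose (list median 11.19 to 11.73 in tumor and 7.24 to 7.83 in nontumor liver; log2 of the sum 14.90 to 15.19 and 10.73 to 12.27), with Krt7 at 4.61 ± 0.19 and Krt19 at 4.41 ± 0.41. Of 6 mesothelial markers 3 rose, namely Msln (5.20 ± 0.24), Wt1 (1.40 ± 0.19) and Upk1b (0.70 ± 0.17), the last at absent-RNA level on all 4 nontumor arrays and on 1 tumor array. The log2 of the mesothelial sum lay between 13.31 and 13.96 in tumor and between 9.70 and 10.61 in nontumor liver. Msln, with a mean of 13.66 in tumor, made up most of the tumor sum. The mesothelial list median lay between 7.30 and 7.77 in tumor and between 6.29 and 7.11 in nontumor liver. Hepatocyte markers fell in 6 of 9 genes, with the log2 of their sum between 14.31 and 16.64 in tumor and between 16.79 and 17 in nontumor liver, and Tat, an amino acid enzyme, showed the largest fall (-3.95 ± 0.87). Endothelial markers rose in 5 of 8 genes, such as Vwf (1.53 ± 0.24), and fell in 3, led by the sinusoidal receptor Stab2 (-3.12 ± 0.21). Macrophage markers rose in 3 of 8 genes and fell in 3, led by the Kupffer cell genes Cd5l (-4.82 ± 0.57) and Clec4f (-3.85 ± 0.29). Lymphocyte markers rose in 3 of 7, led by the T cell gene Cd3g (2.76 ± 0.17). Their list medians overlapped, at 6.92 to 8.14 in tumor and 7.10 to 7.46 in nontumor liver. The sums of endothelial markers overlapped between the groups (log2 12.74 to 13 in tumor and 12.63 to 13.06 in nontumor liver). Their list medians did not, at 9.50 to 9.95 in tumor and 8.89 to 9.12 in nontumor liver. Cartilage and bone markers, of interest because several SLRPs are abundant there, rose in 1 of 7 genes (Col9a1, at absent-RNA level on all 4 nontumor arrays) and fell in 3 (Comp, Matn1 and Col2a1), and Col10a1, Bglap and Ibsp were at absent-RNA level on all 8 arrays.

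Nontumor LEC liver was then set against LEA liver of the same age, which asks how the diseased strain differs outside the tumor. With 1 LEA array, its spread was assumed to equal that of the replicated groups. None of the 11 probe sets was called by limma, where 0.544% of all probe sets were. Of the 11, 10 had positive differences, 7 had an unadjusted p under 0.05 in the higher direction, against 4.46% of all probe sets, and the median was 0.63 beside -0.03 over all. Probe sets of 1 gene are not independent, and these 7 came from 4 genes. Of the 7, 4 lacked a measurable signal in LEA liver and on 2 to 4 of the nontumor arrays: both of Aspn, and 1385248_a_at and 1390450_a_at of Ogn. The other 3 were those of Dcn and Bgn and the brightest of Ogn.

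Dcn had 9.77, 9.78, 9.94 and 9.31 in nontumor LEC liver, against 8.18 in LEA liver, a difference of 1.52 ± 0.33 with a 95% interval from 0.78 to 2.27 (adjusted p = 0.102). All 4 nontumor arrays lay above LEA by more than their own range of 0.63. Its adjusted p was 0.0374 with array weights and 0.0344 without tumor array 3, which enters through the spread. Ogn by its brightest probe set averaged 8.81 ± 0.53 (SD, n = 4) in nontumor LEC liver and was 7.66 in LEA liver (difference 1.14 ± 0.37, adjusted p = 0.264). Ogn probe set 1390450_a_at was called in 2 alternatives, with array weights (adjusted p = 0.0313) and without nontumor array 4 (adjusted p = 0.0383), but both groups lay near absent-RNA level there. Bgn averaged 10.91 ± 0.16 in nontumor LEC liver (SD, n = 4) and was 10.41 in LEA liver (0.50 ± 0.14, adjusted p = 0.191). Ogn probe set 1383263_at differed by 0.63, and its LEA value of 7.46 lay inside the nontumor range of 7.41 to 8.53. Prelp differed by 0.23 ± 0.18, with a 95% interval from -0.18 to 0.65. Lum, Aspn and Fmod were within or near the absent-RNA range in both strains, so no fold is given.

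Col1a1 and Col3a1, which encode fibrillar collagens, were the genes of the other lists that passed the test against LEA. The single LEC array at 4 weeks had Col1a1 at 8.90 and Col3a1 at 11.48, at least as high as nontumor liver at 67 weeks. There was no array of young LEA liver, so strain and age cannot be told apart for these levels. Col1a1 averaged 8.78 ± 0.44 in nontumor LEC liver (SD, n = 4) and was 6.68 in LEA liver (2.10 ± 0.35, adjusted p = 0.0455). Col3a1 averaged 10.97 ± 0.23 in nontumor LEC liver and was 9.61 in LEA liver (1.36 ± 0.21, adjusted p = 0.0369). The median of stellate cell markers lay between 7.74 and 8.05 in nontumor LEC liver and at 7.37 in LEA liver, and that of bile duct markers between 7.24 and 7.83 in nontumor LEC liver and at 6.53 in LEA liver. Whether these levels contribute to the SLRP values was not tested.

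Across age, the LEC arrays at 4, 26 and 39 weeks and the nontumor arrays at 67 weeks show how each SLRP stood before and beside the tumors. The age arrays are single, and at 26 and 39 weeks they are those that carry Y-linked RNA, so age and this difference cannot be told apart. Dcn was 8.60, 10.29 and 10.62 at 4, 26 and 39 weeks and 9.31 to 9.94 at 67 weeks. All 4 arrays at 67 weeks lay above the 4 week value and below the 26 and 39 week values. The difference of 67 weeks was 1.10 ± 0.33 from 4 weeks, -0.59 ± 0.33 from 26 weeks and -0.92 ± 0.33 from 39 weeks, with adjusted p = 0.201, 0.549 and 0.408.

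Bgn was 10.18, 10.77 and 10.82 at 4, 26 and 39 weeks and 10.70 to 11.04 at 67 weeks, so the 26 and 39 week values lay inside the range at 67 weeks. Its difference of 67 weeks from 4 weeks was 0.73 ± 0.14 with adjusted p = 0.0757, and the adjusted p was 0.0216 with array weights and 0.0302 without nontumor array 4. Ogn by its brightest probe set was 8.24, 9.17 and 8.96 at the 3 ages and 8.10 to 9.31 at 67 weeks, so all 3 lay inside the range at 67 weeks. Prelp was 8.94, 9.0 and 9.23 at the 3 ages and 8.43 to 8.94 at 67 weeks, so the 4 arrays at 67 weeks lay at or below the youngest value. Its difference of 67 from 39 weeks was -0.46 ± 0.18 with adjusted p = 0.459.

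Lum was 6.15, 5.46 and 5.37 at 4, 26 and 39 weeks and 4.68 to 6.05 at 67 weeks. All of these lie around the absent-RNA level, and the 95% interval of the Lum difference from LEA, from -1.22 to 2.14, shows how little the arrays resolve there. Both Aspn probe sets lay between 4.34 and 5.66 at the 3 younger ages, below the absent-RNA level. Fmod lay between 5.88 and 6.01 at those ages. No probe set was called at any age by limma, where 0.377%, 0.213% and 0.148% of all probe sets were called for 67 against 4, 26 and 39 weeks. At an unadjusted p under 0.05 there were 4, 0 and 3 of 11, beside 13.3%, 11% and 9.77% of all probe sets. Of these, Aspn 1381504_at (4 weeks) and Ogn 1390450_a_at (4 and 39 weeks) lay at absent-RNA level on the single arrays and on 3 or 4 of the nontumor arrays.

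Between the single age arrays, which allow no test, Dcn was 1.69 higher at 26 than at 4 weeks. It was the 1 probe set of the 11 to differ by 1 unit or more, while 1.73% of all probe sets were that much higher. From 26 to 39 weeks the 11 differences lay between -0.29 and 0.33. Markers stood alongside: the stellate cell median was 7.54, 8.16 and 8.07 at 4, 26 and 39 weeks, and the bile duct median 6.82, 8.26 and 8.07. Their part in the Dcn difference was not tested. In the other lists 1 gene was called in the age comparisons, Cd14, a co-receptor of Toll-like receptors, which averaged 10.11 at 67 weeks and was 11.35 at 4 weeks (-1.24 ± 0.19, adjusted p = 0.0387).

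**Figure D5:**
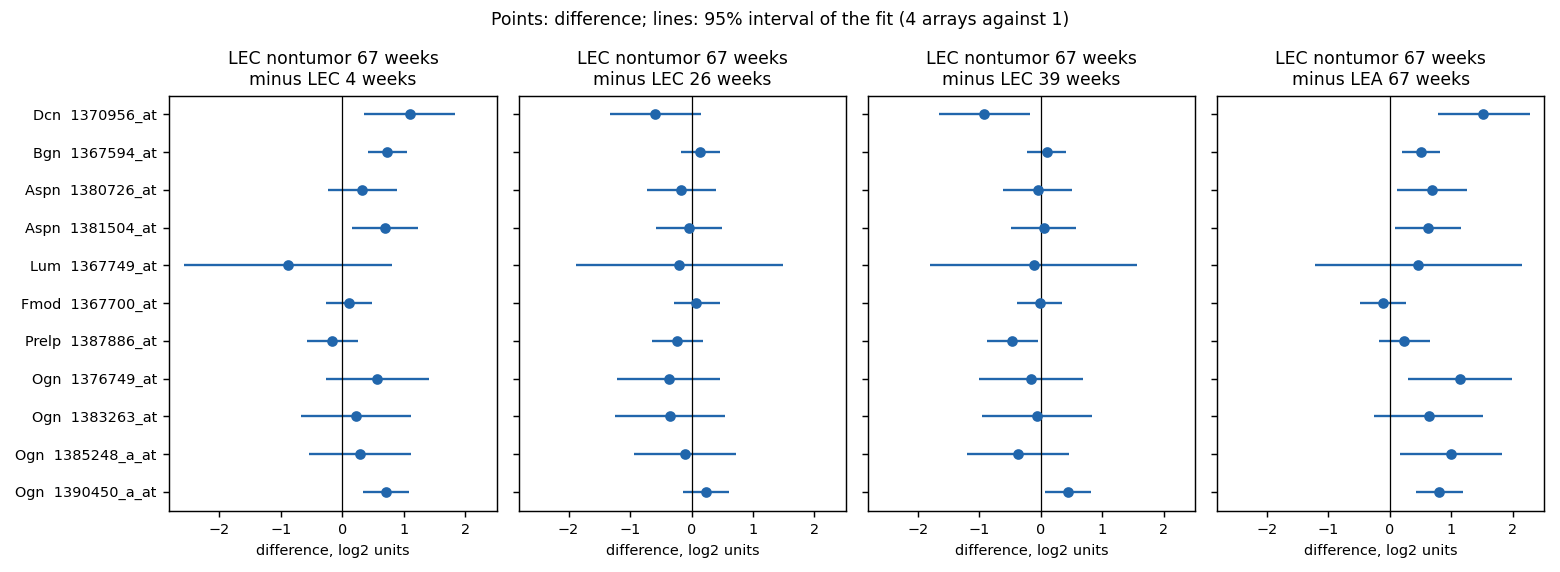
Difference of LEC nontumor liver at 67 weeks (4 arrays) minus each single array, in log2 units, as points with 95% intervals of the fit, for the 11 SLRP probe sets. Dcn stands at 1.52 against LEA and 1.10 against 4 weeks but at -0.59 and -0.92 against 26 and 39 weeks, and the Lum intervals are the widest.

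In order of level, Dcn was highest in tumor (mean 12.62), followed by LEC at 39 weeks, 26 weeks, 67 weeks nontumor, 4 weeks and LEA. Bgn (tumor mean 12.26) was followed by nontumor liver at 67 weeks, then 39 weeks, 26 weeks, LEA and 4 weeks, and the nontumor, 39 and 26 week levels did not differ beyond the nontumor spread. Ogn by its brightest probe set (tumor mean 11.10) was followed by 26 weeks, 39 weeks, nontumor, 4 weeks and LEA, with the first 4 of these inside the nontumor range. Probe set 1383263_at gave the same order, but 1385248_a_at and 1390450_a_at, near absent-RNA level outside tumor, did not. Prelp (tumor mean 11.38) was followed by 39 weeks, 26 weeks, 4 weeks, nontumor and LEA, where LEA lay inside the nontumor range. For Lum and Aspn tumor stood first, and the groups after it were not ordered because they lie at the absent-RNA level.

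Genes whose profile over the 12 arrays was most like that of a member were named by Pearson's r, as a description. Uncharacterized loci were passed over. All 12 arrays share the split into tumor and other liver, so r is high for any gene with a large tumor difference. Over the 8 arrays without tumor, r was 0.764, 0.819 and 0.639 for the 3 genes named for Lum. It was between 0.853 and 0.960 for those named for the other members. The genes were picked by r over all 12 arrays, which include these 8, so this r is no separate support. On these 8 arrays Aspn lay at absent-RNA level and Lum and Fmod at or near it. For these members r without tumor therefore compares values with little or no measurable signal. Dcn was most like Smoc2 (r = 0.986), H2az1 (0.984) and Timp1 (0.982), and Bgn most like Timp2, Shisa5 and Aprt (0.993 each). Aspn was most like Cyba and Wdr1 (0.994 each) and Smc5 (0.991), and Lum most like Ccnd2 and Armcx2 (0.991 each) and Cmtm7 (0.990). Prelp was most like Pxdn and Serpine2 (0.996 each) and Pea15 (0.995), and Ogn most like Mgp (0.990), Gja1 (0.987) and Smoc2 (0.985). Fmod, which did not follow the split, was most like Abo3 (0.917), Serpinb11 (0.891) and Kcnc2 (0.880). Of these, Timp1 and Timp2 encode inhibitors of matrix metalloproteinases, Smoc2 and Mgp encode matrix proteins, and Pxdn encodes a basement membrane peroxidase.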

How the data were processed

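The values used are the log2 expression values that the authors deposited; the submitters' processing notes name RMA and R 2.6.1. The sources used here do not say if normalization was joint; array medians lay between 7.39 and 7.51. Of 31099 probe sets 57 controls were left out. Symbols came from the platform annotation, updated through Entrez identifiers (20758 of 20826 probe sets with a single gene matched); a gene in a list was represented by its brightest probe set on average (14217 genes).

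A model of 6 group means was fitted with limma 3.58.1 (lmFit, eBayes) in R 4.3.3, with 6 residual and 2.84 prior degrees of freedom. Tests were two-sided, with Benjamini-Hochberg adjustment across the 31042 probe sets. For groups of 1 array the spread of the replicated groups was used. The procedure was tested on simulated data.

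The members and the 14 gene lists were chosen with earlier results of these data known. From each list the text names up to 4 called genes with the largest tumor differences, and all other SLRP genes. Des and Pdgfrb tied for the fourth place among stellate cell markers and both are named. Bmp1, Mmp3, Mmp13, Spock1, Ngfr, Cnn1, Col10a1, Bglap, Ibsp, Col3a1, Cd14 and the flanking genes were named after their values were seen, and the use of bacterial probe sets as absent-RNA level was also chosen then. Alternatives are given in the closing section. Figures were drawn with matplotlib 3.10.9.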

Additional observations from a re-analysis of the deposited data

How the results depend on the processing

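The count of 10 called member probe sets in tumor against nontumor liver was the same under repeated quantile normalization, subtraction of array medians, an added minimum difference of 1 log2 unit, a prior with trend and robust settings, weighting of arrays and the title number as a replicate block, and lay between 10 and 11 when 1 replicate was left out. Without dim probe sets it was 5, since dim member probe sets were no longer tested. The fitted differences of Dcn, Bgn, Aspn, Lum, Prelp and Ogn kept their direction and call in every alternative that tested them, including the mean over a gene's probe sets, with Lum between 5.01 and 5.78 when 1 replicate was left out; the Fmod difference was -0.24 to -0.10 when 1 replicate was left out, called without nontumor replicate 2 (-0.24), -0.03 with quantile normalization and -0.25 with array medians subtracted. With the replicate block Lum was 5.45, as without it. The design text speaks of tumor and nontumor sets, but no label says that a title number marks a set, and deviations of same-numbered arrays correlated between -0.08 and 0.14. Against LEA, 2 probe sets were called with array weights and 0 to 1 when 1 replicate was left out; against 4 weeks, these were 2 and 0 to 1; against 26 and 39 weeks, 0 in every alternative. Leaving out the 26 and 39 week arrays, chosen after seeing the data, cannot change the other comparisons, since groups of 1 array add nothing to the spread; it says nothing about their stability. Over all probe sets, calls against LEA were 59 higher and 110 lower, and 132 and 186 with array weights; against 4 weeks 54 and 63, 204 and 173 with array weights and 103 and 95 with quantile normalization; against 26 weeks 13 and 53, 42 and 119 with array weights; against 39 weeks 8 and 38, 33 and 116 with array weights. Without dim probe sets, with 15521 tested, they were 55 and 51, 48 and 26, 8 and 15, and 7 and 11. Leaving out 1 replicate gave 34 to 113 higher calls against LEA and 8 to 103 against 4 weeks. In tumor against nontumor liver 9834 were higher and 10011 lower, and without dim probe sets 6879 and 3820. Subtracting array medians moved the share of tumor calls that were higher from 49.6% to 39.5% and the median of all differences from -0.04 to -0.14; quantile normalization moved the share of higher calls against 39 weeks from 17.4% to 35.6%. Signal near the absent-RNA level limits Lum, Aspn and Fmod outside the tumors.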
